A study of Mus musculus with 24 samples.

Results

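The T-box genes analysed here were Tbx1, Tbx2, Tbx3, Tbx4, Tbx5, Tbx6, Tbx15, Tbx18, Tbx20 and Tbx21. They were chosen by name, as 10 of the 17 T-box family genes in the annotation used here and of the 22380 protein-coding genes. The histone marks H3K4me3 and H3K27me3, were described within 2 kb of each transcription start site (TSS) and over each gene body in FACS-sorted cells of the fetal mouse gonad. XY and XX progenitor cells were collected at E10.5 with the SF1-eGFP reporter, Sertoli cells from XY gonads at E13.5 with Sox9-CFP, and pregranulosa cells (labelled granulosa cells) from XX gonads at E13.5 with TESM-CFP. All embryos were of a mixed C57BL/6 x CD1 background, the labels name no mutation, and sorted cells of several gonads made up each sample. The reporters differed between the stages, and at E13.5 also between the sexes. Stage, sex and reporter therefore cannot be told apart wherever they coincide. The 24 samples were chromatin pulled down for H3 or for either mark, with 2 replicates for each target and population. The deposited data are 8 lists of peaks on mm9, 1 per mark and population. The headers of 6 lists name an H3 control and joined replicates. The 2 pregranulosa lists have no header and were taken to pool both replicates as well. Such lists show no spread between replicates, so populations were compared without a test, and a list says where a mark was called but not how strong it was.

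T-box genes encode transcription factors that bind DNA through a shared domain, the T-box, and most of them pattern the embryo outside the gonad, in mesoderm, heart, limbs and pharynx. H3K4me3 is deposited at promoters, most often those rich in CpG dinucleotides. H3K27me3 is deposited by Polycomb repressive complex 2, can spread over many kilobases, and is read by CBX proteins of Polycomb repressive complex 1. Promoters that carry both marks are called bivalent, a state known from genes of developmental regulators that are silent in a given lineage but can still be turned on or shut down for good.

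Sequence around the annotated TSS differed widely among the members. In the 300 bases from 250 before to 50 after the TSS, the CpG count was 32 in Tbx1, 29 in Tbx3, 28 in Tbx2, 26 in Tbx20 and 21 in Tbx21. It was 17 in Tbx4, 15 in Tbx18, 14 in Tbx15, 7 in Tbx6 and 0 in Tbx5. The members' median of 19.0 compared with 11 over all 22375 protein-coding promoters with a full sequence, and 8 of the 10 members lay above 11. Those promoters include 5863 with neither mark in any list, whose upper quartile was 4. The 3051 with both marks in all 4 lists had lower and upper quartiles of 11 and 27. The members' median lay between these, so their CpG count was not set apart from that of other promoters with both marks. The sequences of 4 members are shown because their marks differ most: Tbx2 had the widest H3K4me3 of the members in every list but that of XY progenitor cells, where Tbx3 had, Tbx4 and Tbx5 were the members without H3K4me3 in 1 list each, and Tbx6 was the member without H3K27me3. A further stretch from intron 1 of Tbx5 is shown because the gene's H3K4me3 lay there. All are from NCBIM37 (mm9), read 5′ to 3′ on the plus strand, along which these 4 genes are transcribed, and capitals mark each CpG. Their positions are chr11:85645803-85646102 for Tbx2, chr11:85699674-85699973 for Tbx4, chr7:133924747-133925046 for Tbx6, chr5:120284422-120284721 for the Tbx5 TSS and chr5:120285450-120285749 for the stretch in Tbx5 intron 1.
Tbx2: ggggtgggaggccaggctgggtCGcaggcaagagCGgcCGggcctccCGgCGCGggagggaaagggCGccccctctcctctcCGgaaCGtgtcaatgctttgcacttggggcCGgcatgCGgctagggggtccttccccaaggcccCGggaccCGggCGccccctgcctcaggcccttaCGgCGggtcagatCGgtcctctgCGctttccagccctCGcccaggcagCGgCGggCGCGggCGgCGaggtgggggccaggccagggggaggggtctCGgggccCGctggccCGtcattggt
Tbx4: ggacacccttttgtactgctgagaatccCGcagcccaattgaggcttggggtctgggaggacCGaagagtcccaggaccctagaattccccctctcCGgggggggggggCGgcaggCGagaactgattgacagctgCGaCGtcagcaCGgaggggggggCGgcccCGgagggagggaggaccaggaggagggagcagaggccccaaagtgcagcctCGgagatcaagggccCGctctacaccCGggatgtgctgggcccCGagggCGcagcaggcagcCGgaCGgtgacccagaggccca
Tbx6: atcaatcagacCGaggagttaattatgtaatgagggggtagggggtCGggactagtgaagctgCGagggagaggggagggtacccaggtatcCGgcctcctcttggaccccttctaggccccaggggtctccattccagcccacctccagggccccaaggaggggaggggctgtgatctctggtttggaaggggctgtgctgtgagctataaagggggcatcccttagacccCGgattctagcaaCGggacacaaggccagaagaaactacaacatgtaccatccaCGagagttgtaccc
Tbx5 TSS: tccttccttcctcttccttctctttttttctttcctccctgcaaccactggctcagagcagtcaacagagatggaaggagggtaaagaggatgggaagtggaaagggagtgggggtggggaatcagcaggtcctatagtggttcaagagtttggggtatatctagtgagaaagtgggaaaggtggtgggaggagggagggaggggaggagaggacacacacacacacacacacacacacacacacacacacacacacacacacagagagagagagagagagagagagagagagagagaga
Tbx5 intron 1: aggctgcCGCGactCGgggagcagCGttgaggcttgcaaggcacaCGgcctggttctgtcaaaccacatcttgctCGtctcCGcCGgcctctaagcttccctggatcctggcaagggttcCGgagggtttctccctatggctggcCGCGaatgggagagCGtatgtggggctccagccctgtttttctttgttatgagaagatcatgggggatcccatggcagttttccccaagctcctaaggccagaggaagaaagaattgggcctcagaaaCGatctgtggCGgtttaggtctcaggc

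The Tbx2 sequence was dense in CpG throughout, with a GC content of 75.3%. Around the Tbx5 TSS the sequence held no CpG and ran into repeats of ca and ga at its 3′ end, whereas the stretch 778 to 1077 bp downstream, within intron 1, held 14 CpG in 300 bases. Tbx6, with 57.7% GC, was the member with a TATAAA sequence, 43 bp before its TSS on the plus strand. That motif, searched on both strands after the sequences had been seen, was in 3007 of 22375 promoters (13.4%). The core of the T-box binding site, GGTGTGA, was searched on both strands as well and was found in 0 of the 10 members and in 3.81% of all promoters of this length. A missing match says only that these letters are not in this window.

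Sequencing depth differed between the lists. The H3K4me3 lists were made from 10162534 tags in XY progenitor, 49254553 in XX progenitor and 31104760 in Sertoli cells, and the H3K27me3 lists from 6470151, 33185400 and 44446456 tags. No depth or caller settings are given for the pregranulosa lists, so comparisons with them may not be like for like. Marker genes of the sorted populations went with the labels at E13.5. Of 10 Sertoli genes, 9 carried H3K4me3 without H3K27me3 in Sertoli cells and 1 did in pregranulosa cells. Of 7 pregranulosa genes, 4 carried H3K27me3 in pregranulosa cells against 7 in Sertoli cells. All 6 gonadal progenitor genes carried H3K27me3 in both progenitor lists, 2 did in Sertoli and 0 in pregranulosa cells. Of 5 endothelial genes, 0 carried H3K4me3 without H3K27me3 in the XY progenitor, XX progenitor and Sertoli lists and 1 did in pregranulosa cells, and the part of cells of other types in the T-box marks was not tested.

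H3K27me3 was present at 9 of the 10 T-box promoters in each of the 4 populations. Over all protein-coding promoters the share was 23.1% in XY progenitor, 24.8% in XX progenitor, 23.5% in Sertoli and 23.6% in pregranulosa cells. The 9 genes were the same in every list, and 15.9% of all promoters carried H3K27me3 in all 4 populations. The exception was Tbx6, which directs the formation of somites from paraxial mesoderm. H3K4me3 was present at 9, 10, 9 and 10 of the 10 promoters in XY progenitor, XX progenitor, Sertoli and pregranulosa cells, against 64.2%, 66.0%, 64.9% and 66.3% of all promoters. The members were therefore mostly bivalent, 8 in XY progenitor, 9 in XX progenitor, 8 in Sertoli and 9 in pregranulosa cells. The background of bivalent promoters was 20.4%, 22.4%, 18.7% and 20.4% in that order. In XX cells all 9 members that were bivalent at E10.5 were also bivalent at E13.5, where 80.2% of all bivalent promoters were. In XY cells 7 of 8 were, against 73.5%, and the member that was not was Tbx5, judged at its annotated TSS. Tbx1, Tbx2, Tbx3, Tbx15, Tbx18, Tbx20 and Tbx21 were bivalent in all 4 populations, as were 13.6% of all promoters. In all, 3053 protein-coding genes, these 7 included, had that set of 8 calls. The sets of Tbx4 and Tbx5 were rarer, at 74 genes (0.331%) and 108 genes (0.483%), while that of Tbx6 was found at 8216 genes (36.7%).

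**Figure D1:**
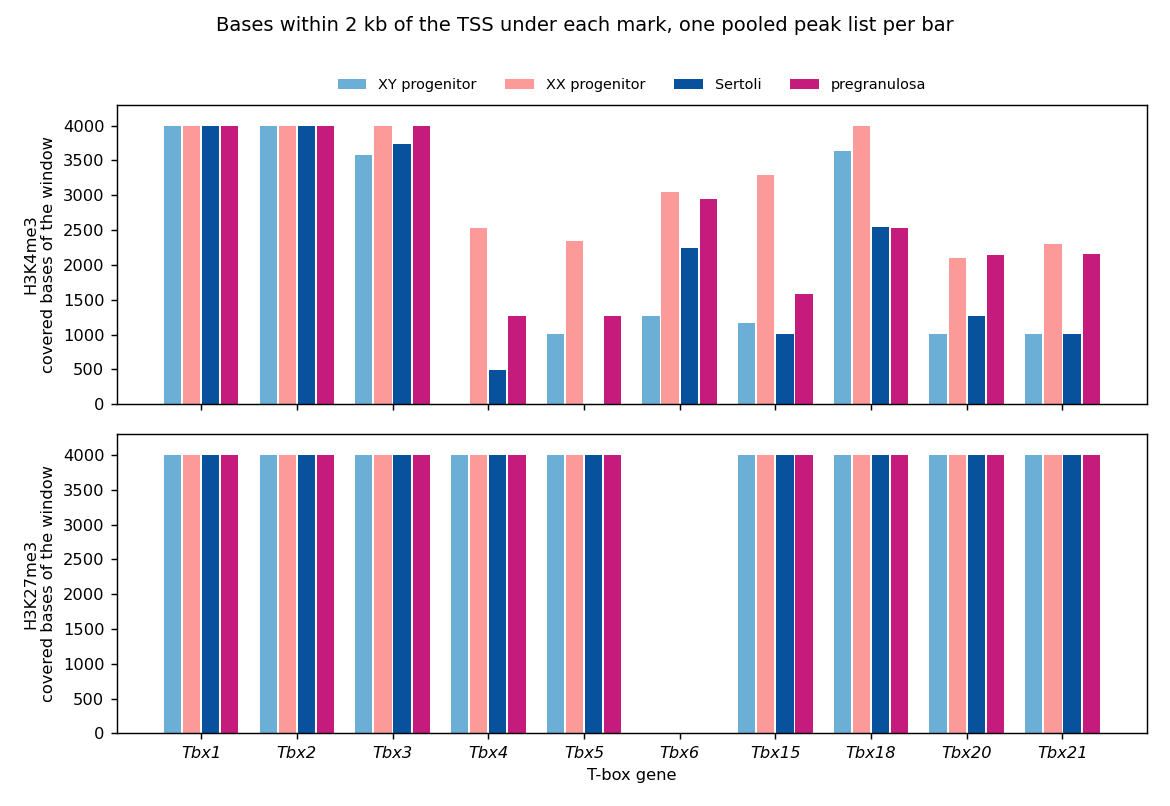
Bases of the 4001-bp window around each TSS under H3K4me3 (upper panel) and H3K27me3 (lower panel), with 1 bar per population from 1 pooled peak list each and no error bars. H3K27me3 fills the window of every member but Tbx6 in all 4 populations, while H3K4me3 ranges from 0 to 4001 bp.

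The H3K27me3 at these promoters left no part of the window free. Each of the 9 marked members had all 4001 bp of its window under H3K27me3 in every list, whereas 63.3% of all marked promoters in XY progenitor, 74.0% in XX progenitor, 71.5% in Sertoli and 75.1% in pregranulosa cells were covered in full. Every base of H3K4me3 in the regions that touch the windows of these 9 genes lay inside H3K27me3. How often the same holds at other bivalent promoters was not counted. At Tbx6 the nearest H3K27me3 region lay 37012 bp from the TSS in XY progenitor, 38139 bp in XX progenitor, 39472 bp in Sertoli and 39453 bp in pregranulosa cells. Tbx6 lies on chr7:133924997-133929074, and Ypel3, a protein-coding gene that starts 4528 bp upstream on the same strand, reaches into its window. In every list an H3K4me3 region over the Ypel3 start was separate from the H3K4me3 region that included the Tbx6 TSS. Where the window overlaps Ypel3, peaks cannot be assigned to one gene or the other by position alone.

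H3K4me3 set the members apart from each other. At Tbx1, a regulator of the pharyngeal apparatus and the cardiac outflow tract (chr16:18581806-18588113, minus strand), H3K4me3 covered 4001 bp of the window in each list. The same was true of Tbx2, a repressor active in heart, limb and lung (chr11:85646053-85655450, plus strand). The whole H3K4me3 region at Tbx2 was 6269 bp wide in XY progenitor, 20551 bp in XX progenitor, 10276 bp in Sertoli and 18114 bp in pregranulosa cells. Of 14848 marked promoters in pregranulosa cells 2 had a wider one, and of 14773 in XX progenitor cells 32 had. In those lists a single H3K4me3 region ran past the end of the Tbx2 gene, to 12903 and 13258 bp downstream of the TSS. In Sertoli cells a separate region, 7956 to 12878 bp downstream, lay over the 3′ end of the gene. In XY progenitor cells a separate region lay within the gene, at 4535 to 6149 bp. The next one there began at 9756 bp, past the gene's end. A lincRNA gene on the other strand, 2610027K06Rik, starts 328 bp upstream of Tbx2, so its H3K4me3 and that of Tbx2 cannot be told apart.

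Tbx3, the closest relative of Tbx2 and the gene of ulnar-mammary syndrome (chr5:120120678-120134733, plus strand), had 3582, 4001, 3737 and 4001 bp of its window under H3K4me3 in XY progenitor, XX progenitor, Sertoli and pregranulosa cells. The whole region was 7642, 10156, 3892 and 6949 bp wide, so the narrowest was that of Sertoli cells. The antisense transcript Gm2301 starts 696 bp inside Tbx3, within the same H3K4me3. Tbx18, which acts in the ureteric mesenchyme, epicardium and sinus node (chr9:87597635-87626095, minus strand), had 3632 and 4001 bp of the window under H3K4me3 in XY and XX progenitor cells. At E13.5 it had 2544 bp in Sertoli and 2534 bp in pregranulosa cells, so both E13.5 values lay below both E10.5 values. Its widest H3K4me3 region measured 5459 and 8075 bp at E10.5 and 2544 and 3128 bp at E13.5.

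At the remaining promoters H3K4me3 covered part of the window, and in XY progenitor cells the regions at Tbx5, Tbx20 and Tbx21 had the commonest width of that list, 1001 bp, which 3 of 37852 listed peaks fell below. In Sertoli cells the regions at Tbx4, Tbx15 and Tbx21 also had the commonest width, 1001 bp, which 1 of 39055 listed peaks fell below. At each of these promoters 1 such peak made the H3K4me3 call in that list. Tbx20, a cardiac factor (chr9:24527648-24578746, minus strand), had 1001 bp in XY progenitor, 2100 bp in XX progenitor, 1263 bp in Sertoli and 2136 bp in pregranulosa cells. Tbx21, which encodes T-bet, the regulator of T helper 1 cells (chr11:96959385-96976645, minus strand), had 1001, 2299, 1001 and 2163 bp in the same order. Both genes thus had more covered bases in the lists from XX cells than in those from XY cells at each stage. Tbx6 (plus strand) had 1269, 3044, 2242 and 2950 bp, the same order of sexes, and its H3K4me3 included the TSS in all 4 lists. This order was common to most promoters with H3K4me3 in both lists. At E10.5 the region was wider in XX cells at 89.3% of them, and the XX list was the deeper. At E13.5 it was narrower in Sertoli than in pregranulosa cells at 69.8%.

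Tbx15, a skeletal regulator related to Tbx18 (chr3:99044304-99158182, plus strand), had 1163 bp in XY progenitor, 3291 bp in XX progenitor, 1001 bp in Sertoli and 1586 bp in pregranulosa cells. The bases common to all 4 lists, 529 bp, lay 838 to 1366 bp downstream of the TSS, in intron 1 of the transcript that begins at the TSS. A second annotated start of Tbx15, 13379 bp downstream, carried both marks in every list, with 1659, 2347, 1708 and 2497 bp of H3K4me3. The start farthest downstream, at 56129 bp, carried neither mark in any list.

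Tbx4 and Tbx5, a closely related pair that directs hindlimb and lung and forelimb and heart, were the members whose H3K4me3 call was not the same in all lists. Tbx4 (chr11:85699924-85729599, plus strand) had no H3K4me3 within 2 kb of its TSS in XY progenitor cells, 2537 bp in XX progenitor, 487 bp in Sertoli and 1264 bp in pregranulosa cells. The Sertoli region began 1514 bp downstream and did not reach the TSS. A second start of Tbx4 lies 3641 bp downstream, and the window around it had 1001, 3763, 874 and 1696 bp of H3K4me3, so that at this start all 4 lists were bivalent. Tbx5 (chr5:120284672-120335227, plus strand) had 1001 bp in XY progenitor, 2339 bp in XX progenitor, 0 bp in Sertoli and 1262 bp in pregranulosa cells. None of its H3K4me3 regions included the annotated TSS, and whether transcription starts there in these cells was not tested, so the calls at Tbx5 hold for the annotated window alone. The 3 lists with the mark shared the bases 468 to 1389 bp downstream, from the end of exon 1 into intron 1, the region from which the CpG-containing stretch above was taken. In Sertoli cells the nearest H3K4me3 lay 2855 bp from the TSS. Within the Tbx5 gene further H3K4me3 was found in all 4 lists in 2 places downstream, beginning at 9979, 10031, 10113 and 9937 bp and at 31561, 31393, 31540 and 31744 bp.

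Where H3K4me3 covered part of the window, it tended to cover the CpG-denser part. In XX progenitor cells, the list in which every member had H3K4me3, 6 members had a partly covered window, and in 5 of them CpG was denser inside than outside the mark. The same held for 97.3% of 13867 partly covered windows of all genes. Tbx15 had 34.6 CpG per kb inside and 2.82 outside, Tbx20 had 41.4 and 9.47, and Tbx21 had 135 CpG in 2299 bp inside and 23 in 1702 bp outside. For Tbx4 the values were 32.3 and 10.2, and for Tbx5 21.8 and 13.8. Tbx6 was the exception, with 19.1 CpG per kb inside and 23.0 outside. The members with fully covered windows in that list, Tbx1, Tbx2, Tbx3 and Tbx18, had 221 to 257 CpG in the 4001 bp, against 74 to 158 in the other 6 and a median of 85 over all genes.

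The H3K27me3 regions at the members were wide. Peaks that share at least 1 bp were joined into regions, and the widest region at each window was taken. Its median over the 9 marked members was 40407 bp in XY progenitor, 42196 bp in XX progenitor, 62055 bp in Sertoli and 43441 bp in pregranulosa cells. The median over all marked promoters was 8031, 9376, 11566 and 11167 bp. In each list all 9 lay above that median. In XX progenitor cells 304 promoters had a wider region than Tbx5, but 3 of these were autosomal. All members are autosomal, so ranks were taken among marked autosomal promoters. By that rank 9 of 9 members in XY progenitor, 8 of 9 in XX progenitor and 6 of 9 in both Sertoli and pregranulosa cells were within the widest 10%. Neighbouring promoters under 1 region share its width, so these promoters are not independent of each other.

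**Figure D2:**
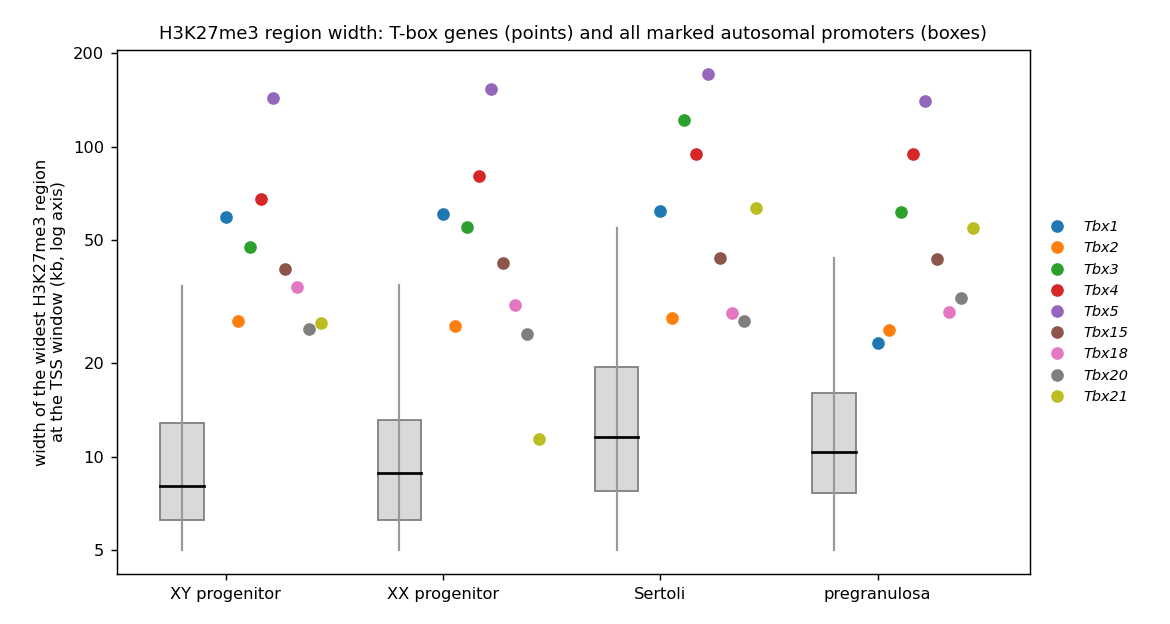
Width of the widest H3K27me3 region at the TSS window, in kb on a log axis. Points are the 9 marked T-box genes, and the boxes give the median and quartiles of all marked autosomal promoters with lines from the 5th to the 95th percentile. Tbx5 is the highest point in each population, from 140108 to 171700 bp.

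Tbx5 had the widest region of the members in every list, with 143385 bp in XY progenitor, 153267 bp in XX progenitor, 171700 bp in Sertoli and 140108 bp in pregranulosa cells. In XY progenitor cells 2 of 5060 marked autosomal promoters had a wider one, and in pregranulosa cells 26 of 4723 had. Most of this region lay upstream, reaching 98227 to 107684 bp before the TSS. Tbx4 had 67878 and 80650 bp in XY and XX progenitor cells and with 94930 and 94782 bp in Sertoli and pregranulosa cells. Here most of the region lay downstream, up to 80049 bp past the TSS and beyond the 3′ end of the 29676-bp gene. Both E13.5 values of Tbx4 lay above both E10.5 values. Tbx3 had 47432, 55251, 122066 and 61605 bp in XY progenitor, XX progenitor, Sertoli and pregranulosa cells, so that Sertoli cells stood apart from the other 3 lists. Among all promoters marked in both lists, 77.5% had a wider region in Sertoli than in XY progenitor cells. The share wider in Sertoli than in pregranulosa cells was 63.8%.

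Tbx2, in contrast, varied little, with 27494, 26503, 27960 and 25669 bp. Tbx15 was as even, at 40407, 42196, 43779 and 43441 bp, and Tbx20 had 25751, 24968, 27416 and 32469 bp. At Tbx18 the region measured 35322 and 30960 bp at E10.5 and 29110 and 29328 bp at E13.5. Tbx21 varied more, with 27018 bp in XY progenitor, 11377 bp in XX progenitor, 63411 bp in Sertoli and 54778 bp in pregranulosa cells. In XX progenitor cells the region at the Tbx21 TSS ended inside the gene and was followed after 5948 bp by a second one of 10196 bp over the 3′ end. At both stages and in both sexes no other H3K27me3 region lay within 160259 bp upstream of the region at Tbx20.

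**Figure D3:**
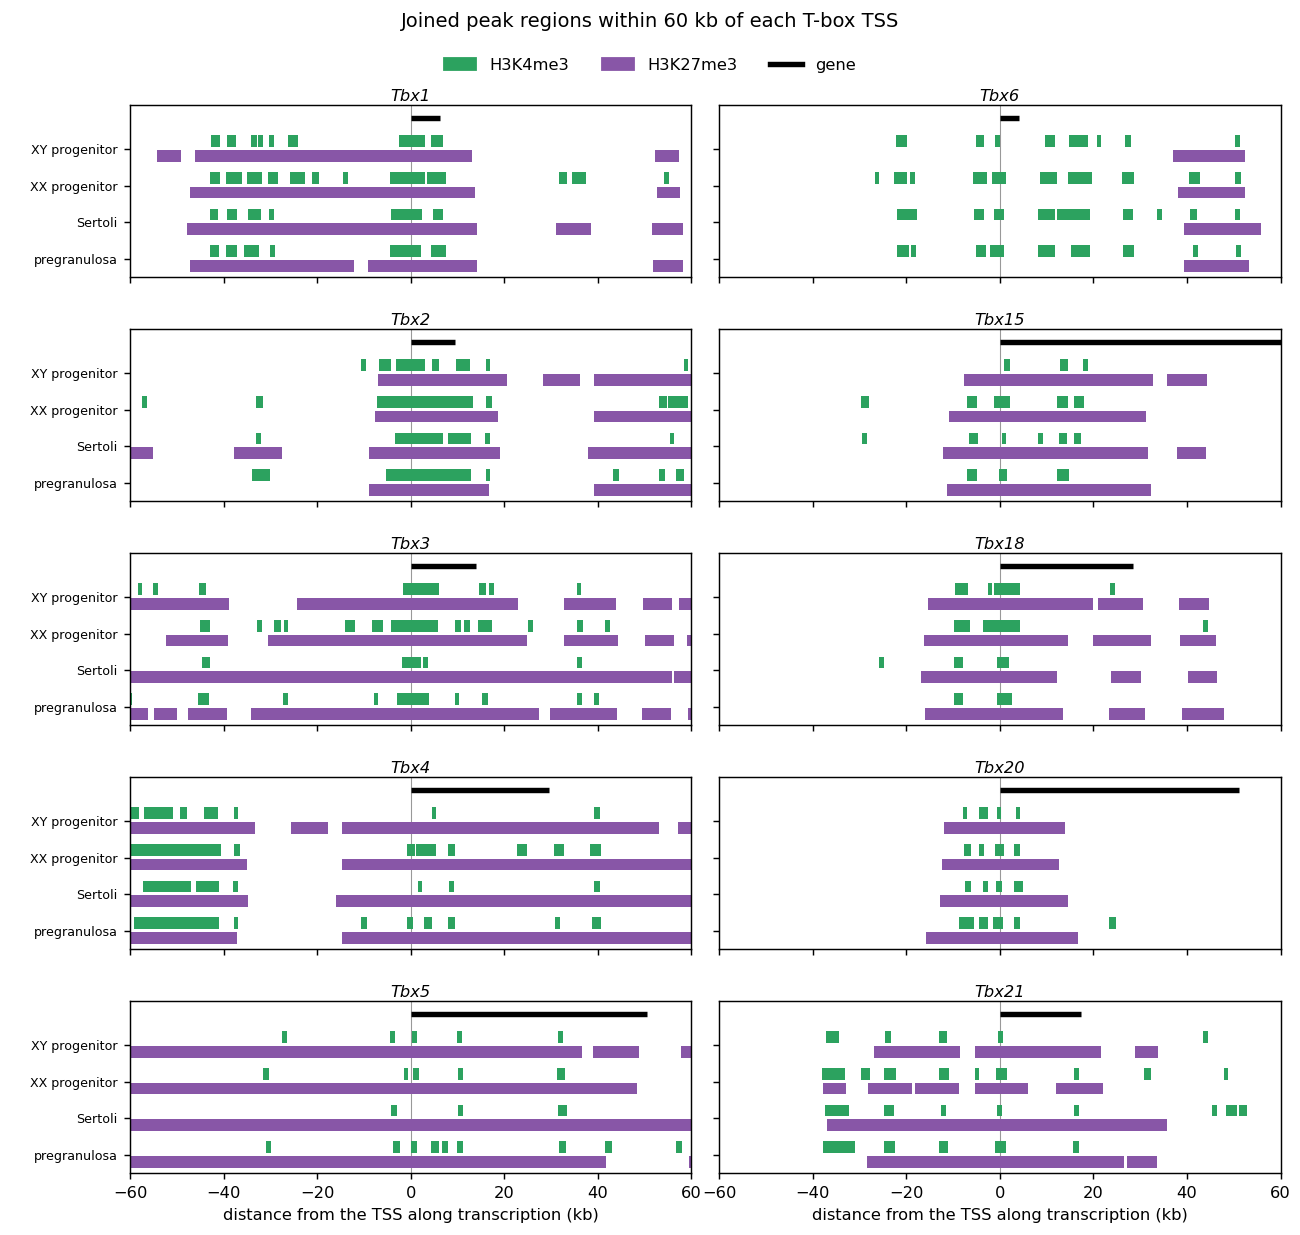
Joined H3K4me3 (green) and H3K27me3 (purple) regions within 60 kb of each T-box TSS, with 1 pair of rows per population and the gene in black. The horizontal axis is the distance from the TSS along transcription, in kb, and bars that reach the edge continue beyond it. Tbx6 is the panel in which no H3K27me3 lies over the TSS, and the break upstream of Tbx1 appears in pregranulosa cells.

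Tbx1 illustrates how a narrow break changes a width. Its region was 59200 bp wide in XY progenitor, 60788 bp in XX progenitor and 62055 bp in Sertoli cells, and 23259 bp in pregranulosa cells. In the first 3 lists the region reached 46071 to 47787 bp upstream and also lay over the promoters of Gp1bb and Sept5, which start 34383 and 41891 bp away. Gp1bb encodes a platelet glycoprotein and Sept5 a septin. In pregranulosa cells a gap of 2974 bp separated the Tbx1 region from a second one of 35020 bp over Gp1bb and Sept5, so all 3 promoters carried H3K27me3 there too. Other members also shared a region with a protein-coding neighbour. Tbx2 did so with Gm11444, which starts 17782 bp away, in all 4 lists, and Tbx21 with Tbkbp1, a gene that starts 36164 bp away, in Sertoli cells. At Tbkbp1 the window held 2769 bp of H3K27me3 in Sertoli cells, 3707 bp in XX progenitor cells from a separate region of 5001 bp, and none in the other lists.

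Over gene bodies, the share under H3K27me3 ranged from 0% to 100% among the members. Tbx1, Tbx2, Tbx3 and Tbx4, between 6308 and 29676 bp long, were covered over 100% of their length in every list. Tbx5 was covered over 92.2%, 95.6%, 100% and 82.8% of its 50556 bp in XY progenitor, XX progenitor, Sertoli and pregranulosa cells. Tbx21 was at 100%, 65.5%, 100% and 100%, so the XX progenitor list stood apart. Tbx18 had the largest range, with 96.5%, 81.4%, 59.4% and 65.1%, and both E13.5 values were below both E10.5 values. The uncovered part of Tbx18 lay between a region at the TSS and another of 6347 to 12444 bp at the 3′ end. Of Tbx15, the longest member at 113879 bp, 27.5% to 36.2% was covered, and of Tbx20, at 51099 bp, 24.7% to 32.6%. At both, the mark lay over the 5′ part of the gene. Tbx6 had none in any list. The median over the 10 members, Tbx6 included, was 98.2%, 88.5%, 100% and 91.4% in XY progenitor, XX progenitor, Sertoli and pregranulosa cells. Over all protein-coding genes with H3K27me3 at the promoter the median was 19.3%, 27.2%, 38.9% and 34.6% in the same order.

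**Figure D4:**
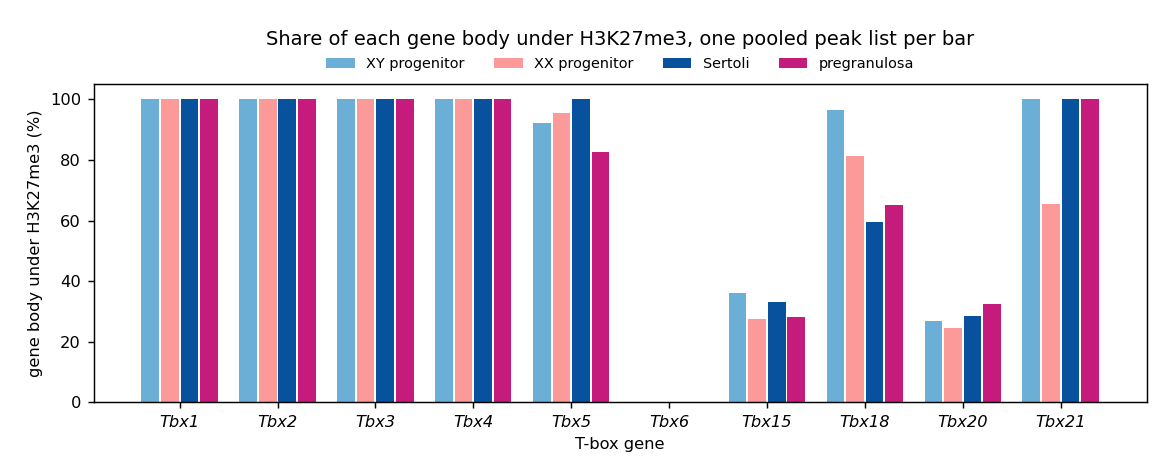
Percent of each gene body, from the TSS to the annotated end, under H3K27me3, with 1 bar per population from 1 pooled peak list each and no error bars. Tbx1, Tbx2, Tbx3 and Tbx4 stand at 100% in all 4 populations, Tbx6 at 0%, and Tbx15 and Tbx20 below 40%.

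Tbx2 and Tbx4 are neighbours on chromosome 11, and Tbx3 and Tbx5 on chromosome 5, an arrangement known to stem from the duplication of an ancestral pair. From the TSS of Tbx2 to the end of Tbx4, a span of 83547 bp, H3K27me3 covered 87.3% in XY progenitor, 75.6% in XX progenitor, 77.4% in Sertoli and 73.3% in pregranulosa cells. The 2 promoters lay in separate regions in every list. The gap between these was 20422 bp in XX progenitor, 18910 bp in Sertoli and 22330 bp in pregranulosa cells, while in XY progenitor cells a further region broke it up and the largest gap was 7783 bp. From Tbx3 to the end of Tbx5, a span of 214550 bp, the share was 90.4%, 91.3%, 99.8% and 90.1% in XY progenitor, XX progenitor, Sertoli and pregranulosa cells. Coverage was thus similar in 3 lists and almost complete in Sertoli cells. Of the H3K27me3 lists with a stated depth that of Sertoli cells was the deepest, with 44446456 tags. The part of depth in this coverage was not tested. The number of regions across this span was 5, 4, 2 and 5, and in Sertoli cells the 2 regions were 352 bp apart. Joining regions within 1 kb made them 1 region in Sertoli cells and left the other lists at 5, 4 and 5. The count of regions across these spans was added after the data were seen.

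The 149938 bp between Tbx3 and Tbx5 hold no other protein-coding gene in this annotation, and 88.8%, 89.0%, 99.8% and 91.6% of them were under H3K27me3 in XY progenitor, XX progenitor, Sertoli and pregranulosa cells. H3K4me3 was also found there, in 6, 8, 2 and 6 regions, of which 6, 7, 2 and 6 lay fully inside H3K27me3. One stretch of 942 bp, 35552 to 36493 bp downstream of the Tbx3 TSS, was marked by H3K4me3 in all 4 lists. In the 44473 bp between Tbx2 and Tbx4, 76.1%, 54.1%, 57.5% and 49.8% were under H3K27me3. The H3K4me3 common to all lists there was a stretch of 902 bp at Gm11444.

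**Figure D5:**
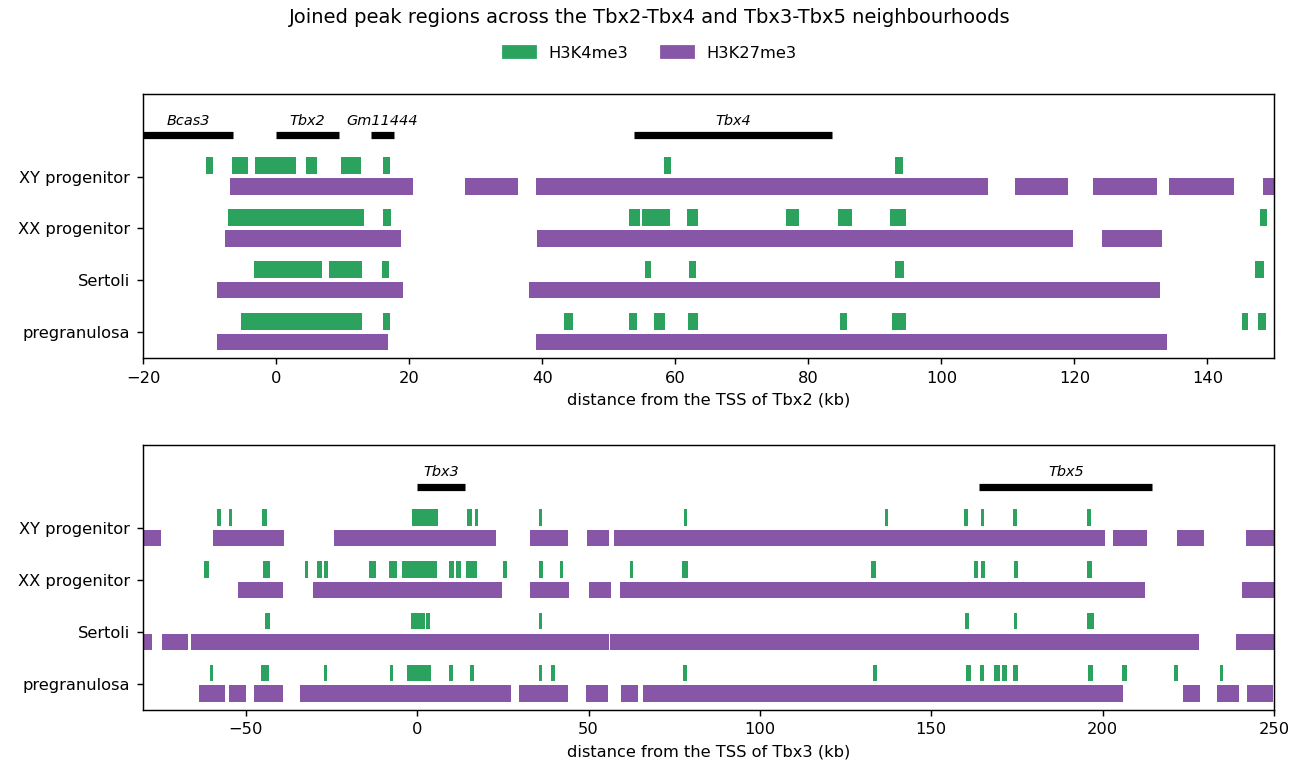
Joined H3K4me3 (green) and H3K27me3 (purple) regions across the Tbx2-Tbx4 (upper panel) and Tbx3-Tbx5 (lower panel) neighbourhoods, with protein-coding genes in black. The horizontal axes give the distance from the TSS of the first gene in kb and differ in scale. H3K27me3 leaves a gap between Tbx2 and Tbx4 in every population and covers 99.8% of the Tbx3 to Tbx5 span in Sertoli cells.

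Region widths were next set side by side between E10.5 and E13.5. From XY progenitor to Sertoli cells the H3K27me3 region was wider at 8 of 9 members, as it was at 77.5% of all promoters with the mark in both lists. Tbx18 was the member with a narrower region. H3K4me3 was wider at 4, narrower at 3 and equal at 1 of 8 members, with 71.0% of all promoters wider. From XX progenitor to pregranulosa cells H3K27me3 was wider at 5 of 9 members, against 59.8% of all promoters, and H3K4me3 at 2 of 10, against 47.2%. The H3K4me3 tags rose from 10162534 to 31104760 on the XY side and the H3K27me3 tags from 6470151 to 44446456, and the part of depth in these widths was not tested.

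Between the sexes at E10.5, H3K4me3 was wider in XX than in XY progenitor cells at all 9 members with the mark in both lists. It was also wider at 89.3% of all promoters, close to the members' share, and the XX list was made from 49254553 tags against 10162534. H3K27me3 was wider in XX cells at 5 of 9 members, near the 54.5% of all promoters. At E13.5 the H3K4me3 region of Sertoli cells was narrower than that of pregranulosa cells at all 9 members with both. It was narrower at 69.8% and wider at 29.1% of all promoters, the same direction. The H3K27me3 region was wider in Sertoli cells at 7 of 9 members, against 63.8%. The exceptions for H3K27me3 were Tbx18 and Tbx20. Depth of the pregranulosa lists is unknown, so whether it moves with these E13.5 differences was not tested.

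Of the other 7 family genes, 3, 4, 4 and 3 carried H3K27me3 at the promoter in XY progenitor, XX progenitor, Sertoli and pregranulosa cells. T (Brachyury) and Eomes, which act in gastrulation, were bivalent in all 4 lists, with H3K27me3 regions of 14767 to 21400 bp at T and 32422 to 45401 bp at Eomes. In Sertoli cells the H3K4me3 call at T rested on a region of 1001 bp that ended 1308 bp upstream of the TSS. Tbr1, a regulator of cortical neurons, carried H3K27me3 at the promoter in all lists and lacked H3K4me3 there in XY progenitor cells. Mga, which pairs with MAX and is broadly used, carried H3K4me3 without H3K27me3 in all 4, the same calls as Tbx6. The remaining 3, Tbx10, Tbx19 and Tbx22, carried H3K27me3 at the promoter in at most 1 list each. For Tbx10 that list was Sertoli cells, with 5001 bp, and for Tbx22, on chromosome X, it was XX progenitor cells, with 21949 bp. The Tbx22 gene body carried H3K27me3 in all 4 lists. The share was 35.8% in XY progenitor, 79.2% in XX progenitor, 29.7% in Sertoli and 49.0% in pregranulosa cells.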

How the data were processed

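ChIP-seq was performed by the authors on FACS-sorted fetal gonad cells with native, MNase-digested chromatin. Per the labels, Trim Galore, Bowtie, SAMtools and HOMER were used with mm9, and no versions are given in the sources used here. The authors deposited 8 HOMER peak lists, 1 per mark and population. The headers of 6 lists name findPeaks in histone style, joined replicates, an H3 control, a minimum of 4.00 times the control, a p-value of 1.00e-04 and a peak size of 5000 bp (H3K27me3) or 1000 bp (H3K4me3). The settings of the 2 pregranulosa lists, which lack a header, are not known. The deposited score column holds 1 value throughout, so only peak positions were used.

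Peaks sharing at least 1 bp were joined, because 3 H3K27me3 lists hold overlapping peaks of 5001 bp and the pregranulosa list is already joined. Genes came from GENCODE M1 on NCBIM37 (mm9), and 0 peaks ended beyond a chromosome. A promoter was the TSS ± 2 kb, marked where a region covered at least 1 bp. Positions count from 1. Percentages over all 22380 protein-coding genes are given beside the members' counts. Named genes were the members, 7 other family genes and protein-coding neighbours under the same region. Members and lists were chosen with earlier results of these data known. Groups came from the labels, and no test was run, since each condition has 1 pooled list. Depth is given with the results. Covered bases were right in 100% of 3000 simulated windows. The alternatives used other overlaps, windows, starts, joins and list sizes. Python 3.11.15, NumPy 2.4.6 and matplotlib 3.10.9 were used.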

Additional observations from a re-analysis of the deposited data

Results flagged for a closer look

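In 7 cases a value moved one way from XY progenitor to Sertoli cells and the other way from XX progenitor to pregranulosa cells. The values compared at each of the 10 members were H3K4me3 bases in the window, H3K27me3 region width and H3K27me3 share of the gene body. How often such opposite moves occur over all promoters was not counted. Each change is the difference of 2 pooled lists, so none of these differences was tested. The H3K27me3 region at Tbx1 widened by 2855 bp on the XY side and changed by -37529 bp on the XX side, a difference of 40384 bp, and the XX change came with a break of 2974 bp in the pregranulosa region. The region at Tbx5 changed by 28315 and -13159 bp, a difference of 41474 bp, and its share of the gene body by 7.81 and -12.8 percentage points, a difference of 20.6. At Tbx2 the region changed by 466 and -834 bp, a difference of 1300 bp. The share of the Tbx15 gene body under H3K27me3 changed by -2.86 and 0.776 percentage points, a difference of -3.63. H3K4me3 in the Tbx4 window changed by 487 and -1273 bp, a difference of 1760 bp, and in the Tbx6 window by 973 and -94 bp, a difference of 1067 bp. On the XY side the depth of both marks rose between the stages, and its part in these changes was not tested. On the XX side every change ends in a pregranulosa list, whose depth and caller settings are not known.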

How the results depend on the processing

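Of the counts and medians that answer a comparison, 149 alternative values stayed within 1.5 times the reported value and 3 did not. That limit is wide for counts out of 10, and a fall from 7 to 5 members stays within it. With peaks as listed, the median H3K27me3 width at the members became 5001 bp in XY progenitor, 5001 bp in XX progenitor and 5001 bp in Sertoli cells, the size of the listed peaks, while the pregranulosa median stayed at 43441 bp. H3K27me3 was found at 9 members in every list under every alternative run. The windows of these 9 were covered in full by wide regions, and the shortened lists kept the widest regions. These settings could therefore hardly have changed that count. H3K4me3 was less even. In Sertoli cells 8 members had it when 500 bp of overlap or a window of 1 kb was required, since Tbx4 then lost it, and among the widest 75% of regions 8 had it there and 7 in XY progenitor cells, so that 5 members were bivalent in both. With any annotated start 10 members had it in XY progenitor cells, Tbx4 included. Regions within 5 kb of each other, when joined, gave a median of 61253 bp in pregranulosa cells, and from Tbx3 to Tbx5 left 3 regions in XY progenitor, 3 in XX progenitor, 1 in Sertoli and 2 in pregranulosa cells. No replicate could be left out, because each list pools both. No paired analysis was possible because each list pools both replicates and no test was run. Depth was unequal and is unknown for the pregranulosa lists, and the lists carry no level of enrichment.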
